A study of Mus musculus with 48 samples.

Results

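Chemokines and their receptors were followed across the livers of 48 mice. Chemokines are small secreted proteins that direct the migration of leukocytes. They are classed as CC, CXC, CX3C or XC by the spacing of their first cysteines, and they act through G protein-coupled receptors named for the same classes. Atypical receptors bind chemokines without G protein signalling and remove or redistribute them. In the liver, CCL2 acting through CCR2 is known to recruit blood monocytes, CX3CL1 and its receptor CX3CR1 act in macrophage survival, and CXCL16 and its receptor CXCR6 act in the residence of NKT and T cells along the sinusoids. CXCL12 is made constitutively and retains CXCR4-bearing cells.

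The members were 54 of the genes annotated as protein coding whose symbol begins with a chemokine or chemokine receptor stem followed by a digit (Ccl, Cxcl, Cx3cl, Xcl, Ccr, Cxcr, Cx3cr, Xcr or Ackr). They are 32 ligands and 22 receptors, among 29221 genes, of which 17455 were annotated as protein coding. Of the 54, 14 lie on chromosome 11, 13 on chromosome 9, 8 on chromosome 5 and 7 on chromosome 1.

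All mice were adult and carried floxed Pparg alleles. Pparg encodes the nuclear receptor PPARγ. Each mouse received an AAV8 vector after 16 weeks on its diet. In the groups labelled knockout the vector was AAV8-TBG-Cre, in which the hepatocyte promoter TBG drives Cre, and in the control groups it was AAV8-TBG-null, so other liver cells were not the target of Cre. Females alone had a low-fat (LF) group, kept on that diet for 34 weeks (4 control and 4 labelled knockout), and these livers are labelled healthy. The high-fat (HF) diet was fed for 34 weeks to both sexes (6 control and 6 labelled-knockout males, 4 and 4 females), and these livers are labelled steatosis. In the third diet, 18 weeks of HF were followed by 16 weeks of a diet with added cholesterol and fructose (HFCF, again 6 and 6 males, 4 and 4 females), and these livers are labelled NASH, non-alcoholic steatohepatitis. Each library is 1 mouse and is whole-liver RNA. Age and strain background are not given in the sources used here.

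Reads on genes ran from 15338239 to 22072884 per library. Whole-gene Pparg counts were read beside the knockout labels and cannot settle them. Pparg itself was not lower in any labelled-knockout group: its level was 41.2 ± 14.1 CPM (counts scaled to a common library size, SD, n = 6) in labelled-knockout males on HF and 34.3 ± 3.95 (n = 6) in their controls. It was higher in labelled-knockout than in control males on HFCF (log2 fold change 0.81, SE 0.11, adjusted p = 0.000805) and in labelled-knockout than in control females on HFCF (0.97, SE 0.13, adjusted p = 0.0422). The count covers the whole gene, so it does not read the deleted exons alone, and the groups are called labelled knockout throughout. Summed levels of 4 hepatocyte markers were 38900 to 120000 CPM. The adipocyte genes Adipoq and Retn together reached at most 0.134 CPM.

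Some libraries stood apart from their group. Replicate 1 of the control males on HFCF was low in many members and held 208 CPM of summed monocyte and recruited macrophage markers, where its group's median was 664. Replicate 1 of the control females on HF was high in several members and in the same markers, at 321 CPM against a group median of 74.4. Replicate 4 of the labelled-knockout males on HF was high in Ccl2, Ccr1 and Cxcl9. Replicate 1 of the labelled-knockout females on HFCF was low in Ccr2, with 304 CPM of the monocyte markers against a median of 608, and it had the highest hepatocyte marker sum of its group, 111000 CPM. Replicate 3 of the labelled-knockout females on HF held 108 CPM of summed neutrophil markers, where its group's median was 7.82. Where leaving one of these livers out adds or removes a call between HFCF and HF or between labels in males, the change is given.

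The kappaB consensus is the site of NF-kappaB factors that inflammatory signals activate. Upstream sequences are shown for Cxcl1, Cxcl2 and Cxcl10, picked from the members whose promoters hold it. Those of the other members with a match are not shown. Sequences are also given for Cxcl14 and Ccl6, higher on HFCF than on HF in each comparison below, and Cxcl12, lower in 3 of 4. RefSeq promoters (GRCm38.p6) were matched by symbol for 42 of the 54 members, 46 promoters in all. Within 250 bases upstream, on both strands, the kappaB consensus was found in 11 of 46 member promoters (23.9%) and in 7.25% of all 32851 promoters. The AP-1 motif TGANTCA was found in 5 of 46 (10.9%, against 6.75% of all) and the interferon-type motif GAAANNGAAA in 2 of 46 (4.35%, against 2.98%). The 11 belong to Cxcl1, Cxcl2, Cxcl3, Cxcl10, Ccl1, Ccl9, Ccl20, Ccr1, Ccr3, Ccr6 and Ackr2. Cxcl10 also holds the other motifs, and its matches to the 3 do not overlap. A match is a run of letters and not a measured binding site. Each line below gives the 120 bases just before RefSeq's start, 5′ to 3′, with kappaB matches in capitals.
Cxcl1: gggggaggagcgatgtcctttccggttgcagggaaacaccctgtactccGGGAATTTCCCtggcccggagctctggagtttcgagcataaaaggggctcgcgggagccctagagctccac
Cxcl2: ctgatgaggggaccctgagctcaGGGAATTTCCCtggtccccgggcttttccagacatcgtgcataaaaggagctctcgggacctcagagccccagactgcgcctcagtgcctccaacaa
Cxcl10: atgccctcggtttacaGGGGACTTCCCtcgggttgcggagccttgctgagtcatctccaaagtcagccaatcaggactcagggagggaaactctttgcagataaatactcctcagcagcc
Cxcl14: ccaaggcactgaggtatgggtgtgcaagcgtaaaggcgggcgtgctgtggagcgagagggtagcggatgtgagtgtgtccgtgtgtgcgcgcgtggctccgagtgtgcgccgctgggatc
Ccl6: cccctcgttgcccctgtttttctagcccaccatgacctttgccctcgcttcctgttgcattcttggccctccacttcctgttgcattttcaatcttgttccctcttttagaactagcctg
Cxcl12: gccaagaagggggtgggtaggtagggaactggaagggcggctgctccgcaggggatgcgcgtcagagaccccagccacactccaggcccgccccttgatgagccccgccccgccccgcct
In GRCm38.p6 these windows are chr5:90891125-90891244 on the plus strand (Cxcl1), chr5:90903779-90903898 on the plus strand (Cxcl2), chr5:92348890-92349009 on the minus strand (Cxcl10), chr13:56296552-56296671 on the minus strand (Cxcl14), chr11:83593088-83593207 on the minus strand (Ccl6) and chr6:117168415-117168534 on the plus strand (Cxcl12). The matches of Cxcl1 and Cxcl2 have the same letters. RefSeq's start can differ from that of the annotation in the deposited tables: the windows of Cxcl1 and Cxcl2 run 4 and 28 bases into the gene as annotated there. Those of Cx3cl1, Cx3cr1 and Ccr2 lie wholly inside it and are not shown. The windows of Cxcl14, Ccl6 and Cxcl12 hold no kappaB match.

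Levels between genes can be compared only per length, and for this the authors' FPKM (fragments scaled by gene length and library size) was used. Cxcl12 was the most abundant member, with a mean of 55.1 FPKM over the 48 livers. It was followed by Ccl9 (17.2 FPKM) and Ccl6 (9.15 FPKM), CC chemokines of myeloid cells found in rodents, and by the CXCR3 ligand Cxcl9 (7.12 FPKM), which interferon-γ induces. Cxcl16 (5.69 FPKM), the neutrophil chemoattractant Cxcl1 (4.72 FPKM), Ccl27a (4.17 FPKM) and the T cell attractant Ccl5 (4.07 FPKM) came next. Among the receptors, Cx3cr1 (2.63 FPKM), Cxcr4 (1.71 FPKM) and Ccr2 (1.66 FPKM) were abundant. Their group means overlapped in range, and no order among these 3 was tested. Cxcl12 made up 25.8 to 63.5% of the summed ligand FPKM of a liver. Its median share was 55.8% in control females on HF and 35.1% on HFCF, and 40.1% in control males on HF and 29.9% on HFCF.

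**Figure D1:**
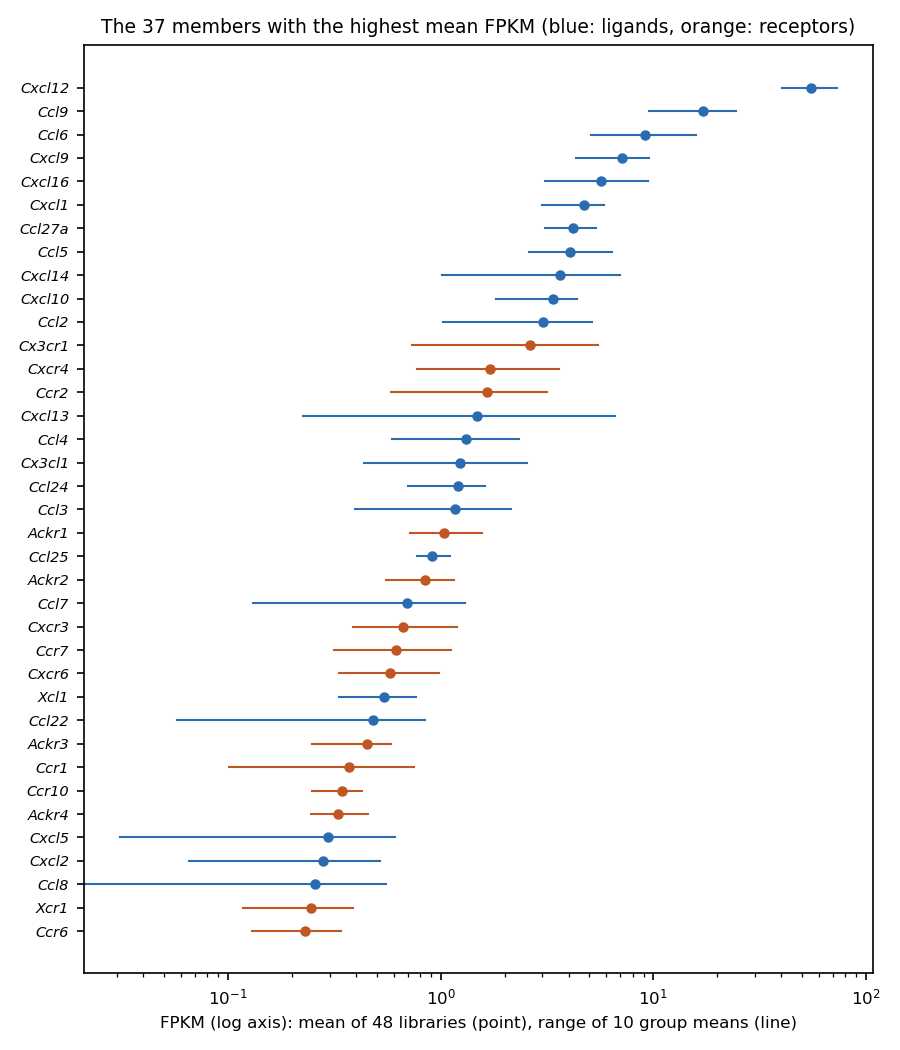
Mean FPKM over 48 livers (point) and the range of the 10 group means (line, log axis) for the 37 members with the highest mean, ligands in blue and receptors in orange; the lowest group mean of Ccl8 lies off the axis. Cxcl12 sits at 55.1 FPKM, above Ccl9 at 17.2, and the receptors drawn sit at or below the 2.63 of Cx3cr1.

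Comparisons were tested gene by gene with edgeR's quasi-likelihood test over all genes with enough reads, and a gene was called at an adjusted p (Benjamini-Hochberg over all genes tested) under 0.05. In the 13 comparisons between 2 groups, 25 of the 54 members had enough reads in every one, 12 in some, and 17 in none. The 17 had 3 to 369 reads summed over all 48 livers: the ligands Ccl1, Ccl8, Ccl11, Ccl12, Ccl17, Ccl20, Ccl21b, Ccl28, Cxcl3, Cxcl17 and Xcl1 and the receptors Ccr1l1, Ccr3, Ccr4, Ccr8, Ccr9 and Cxcr1. Nothing is said about change in these. Ccl21b has near-identical copies among which reads could be split. A member that passed the read filter in some comparisons only may have done so through its higher group. In all, 25 members were called in at least 1 comparison. The comparisons share livers and the matching share of all genes is not given, so nothing about the members as a set is drawn from this count. Of the 54, 14 overlap another gene, and because the libraries were not strand specific, reads in a shared stretch cannot be assigned to a strand.

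HFCF livers were set against HF livers of the same sex and label, which gives 4 comparisons with no liver in common. Ccl2 and its receptor Ccr2, and Cx3cl1 and its receptor Cx3cr1, were higher on HFCF in each. In control males 12 of 33 tested members were higher and 0 lower, where 22.3% of all genes tested were called (13.0% higher, 9.31% lower). In labelled-knockout males 17 were higher and 3 lower of 33, where 41.7% of all genes were called (21.6% higher, 20.0% lower). In control females 15 were higher and 2 lower of 32, with 30.8% of all genes called (16.9% higher, 13.8% lower). In labelled-knockout females 11 were higher and 2 lower of 34, with 14.5% of all genes called (8.44% higher, 6.01% lower). As shares of the members tested the calls were 36.4, 60.6, 53.1 and 38.2%. The median log2 fold change of the members tested was 0.60, 0.85, 1.07 and 0.55, beside medians over all genes within 0.02 of 0 (0.00618, -0.02, -0.0189 and -0.00948).

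These counts moved with single livers, and the share of all genes called moved with them. In control males 10 of the 12 calls were made in every fit that left out 1 liver, and those of Ccl2 and Ccr7 were not. Without replicate 1 of the control males on HFCF the count was 18, where 37.0% of all genes were called: Ccl3, Ccl4, Ccl5, Ccr1 and Cxcr6 were then also higher, and Ackr4 lower. In labelled-knockout males 15 of the 20 calls were made in every such fit, the exceptions being Ccl7, Ccr1, Ccr7, Cxcl2 and Cxcr6. Without replicate 4 of their HF group the count was 23, where 41.7% of all genes were called, with Ccl4, Ccl5 and Cxcl10 also higher.

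Among control females 6 of the 17 calls (Ccl2, Ccl6, Ccr2, Cx3cl1, Cxcl16 and Cxcr4) held whichever of the 8 livers was left out. The count was 21 without replicate 1 of the HF controls, where 43.6% of all genes were called and Ackr3, Ccl22, Ccr7 and Cxcl2 were also higher. It was 6 without replicate 1 of the HFCF controls (16.9% of all genes). Leaving out replicate 2, 3 or 4 of the HF controls gave 9, 10 and 7 (18.2, 18.7 and 18.0% of all genes), and leaving out replicate 2 or 5 of the HFCF controls gave 9 and 8 (16.5 and 18.4%). Among labelled-knockout females 3 of the 13 calls (Ccl6, Cx3cl1 and Cxcl14) held in all 8 such fits. The count was 16 without replicate 3 of the HF group (17.4% of all genes). It was 3 without replicate 4 of the HFCF group (5.82%). Leaving out replicate 1 or 2 of the HF group gave 4 and 6 (7.23 and 8.9%), and leaving out replicate 2 or 3 of the HFCF group gave 4 and 5 (6.79 and 7.64%). Without replicate 1 of the HFCF group it was 13, where 29.1% of all genes were called, with Ccl27a lower in place of Cxcl13.

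Of the 30 members tested in all 4 comparisons, 7 were higher on HFCF in each, where 4.14% of all genes tested in all 4 were. They were Ccl2, Ccl6, Cx3cl1, Cxcl14 and Cxcl16 among the ligands, and Ccr2 and Cx3cr1 among the receptors. Ccr1, Ccr7, Cxcl5 and Cxcr4 were higher in 3 of the 4. Ccl3, Ccl9, Ccl22, Cxcl9 and Cxcr6 were higher in 2, and Ackr2, Ccl4, Ccl7, Cxcl2 and Xcr1 in 1. On the lower side, Cxcl12 was called in 3, Ccl27a in 2, and Ccl25 and Cxcl13 in 1 each. Of the 7 members higher in all 4, 5 had a RefSeq promoter entry (Ccl6, Ccr2, Cx3cl1, Cx3cr1 and Cxcl14). None of these held a kappaB match in the 250 bases before RefSeq's start. For Ccr2, Cx3cl1 and Cx3cr1 that start lies inside the annotated gene. Bases before their annotated start were therefore searched only in part or not at all. Of the 11 members with a match, Ccr1 was higher in 3 of the 4 comparisons, Ccl9 in 2, and Cxcl2 and Ackr2 in 1 each. Cxcl1, Cxcl10 and Ccr6 were called in none of the 13 comparisons, and Ccl1, Ccl20, Ccr3 and Cxcl3 had too few reads to be tested. Nothing about the factor is drawn from these letters.

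**Figure D2:**
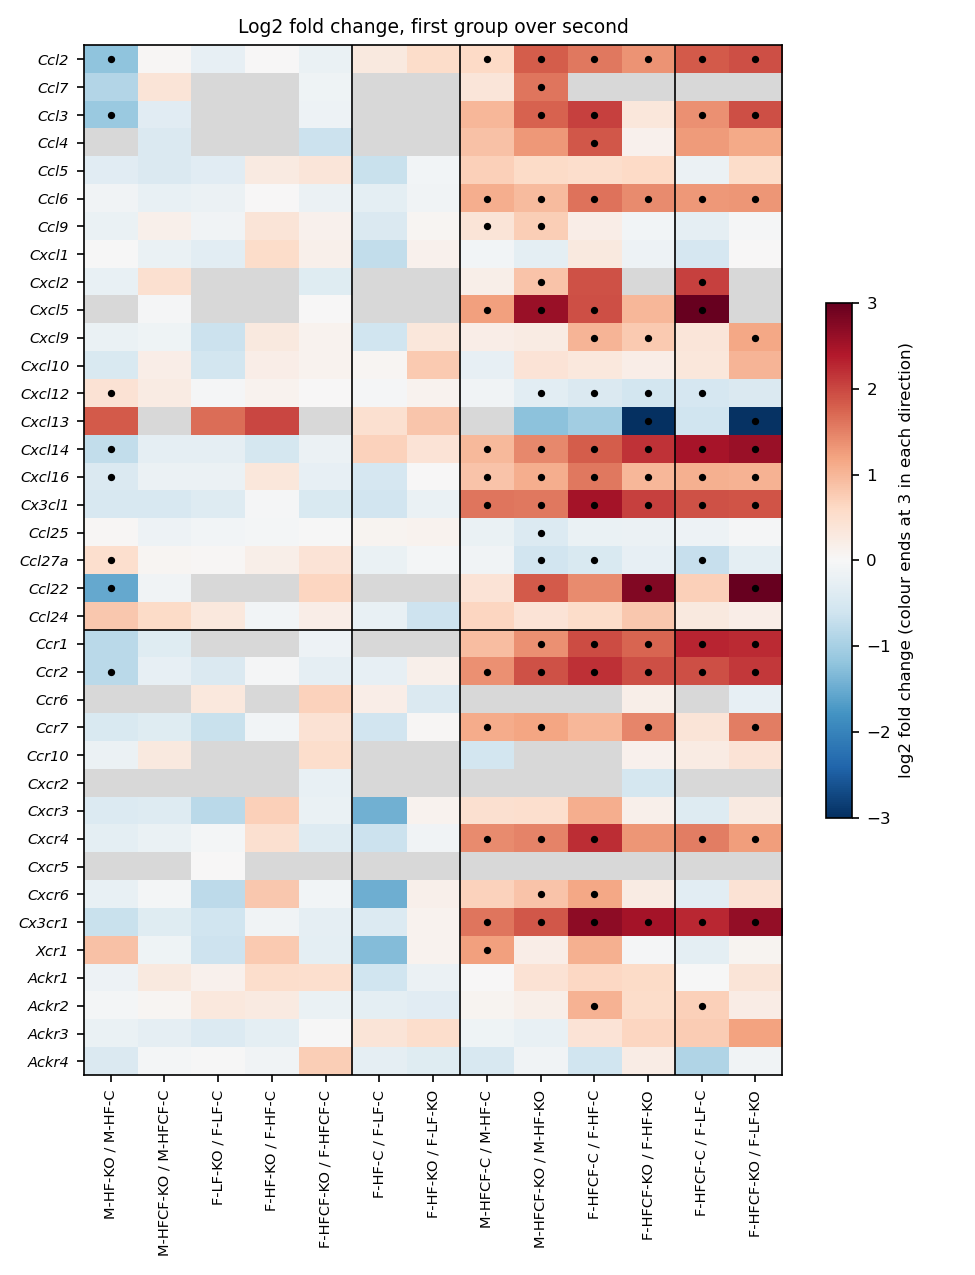
Log2 fold change of each member tested (rows, ligands above the line and receptors below) in the 13 comparisons of 2 groups (columns, first group over second, M male, F female, C control, KO labelled knockout). Black dots mark adjusted p under 0.05 and grey cells were not tested. The 6 HFCF columns on the right hold 12, 20, 17, 13, 15 and 14 dots, the labelled-knockout column of HF males holds 8, and the other 6 columns hold 0.

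The ligands of CCR2 come first. Ccl2, on chromosome 11 (GRCm38 chr11:82035571-82037453), attracts monocytes. In males its lowest, median and highest CPM were 2.94, 4.13 and 4.64 in the HF controls and 3.0, 6.26 and 6.84 in the HFCF controls. They were 0.974, 1.49 and 3.54 in the labelled-knockout HF group and 3.33, 5.18 and 10.2 in the labelled-knockout HFCF group. In females the HF controls stood at 2.25, 1.24, 2.55 and 0.797 CPM and the HFCF controls at 4.25, 3.80, 4.43 and 8.11. The labelled-knockout females stood at 1.29, 1.25, 3.24 and 0.985 CPM on HF and 3.68, 5.57, 3.61 and 4.69 on HFCF. All 8 HFCF females were above all 8 HF females, whereas in control males the low HFCF replicate 1 overlapped the HF range. The log2 fold changes of HFCF over HF were 0.60 (SE 0.19, adjusted p = 0.0335) in control males, 1.82 (0.33, 0.000513) in labelled-knockout males, 1.59 (0.39, 0.0158) in control females and 1.35 (0.37, 0.0374) in labelled-knockout females. The call was lost in 8 of the 12 fits in control males, without HF replicate 2, 4 or 6 or HFCF replicate 2, 3, 4, 5 or 6 (adjusted p at most 0.0787). It was lost in 6 of 8 in labelled-knockout females, without HF replicate 1, 2 or 4 or HFCF replicate 2, 3 or 4 (at most 0.107). Ccl7, a neighbouring CCR2 ligand, was low (group means of 0.107 to 1.05 CPM) and was called in labelled-knockout males (1.61, SE 0.50, adjusted p = 0.0185), though not without HFCF replicate 3 (0.0533). It had too few reads to be tested in the female HFCF-against-HF comparisons.

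Ccr2, the receptor of these ligands on inflammatory monocytes, lies at GRCm38 chr9:124101950-124113557. In males the lowest, median and highest Ccr2 CPM were 7.07, 8.21 and 11.9 in HF controls, 9.0, 23 and 26.4 in HFCF controls, 2.27, 4.44 and 9.10 in labelled-knockout HF and 13.4, 17.0 and 25.4 in labelled-knockout HFCF livers. Control females stood at 10.2, 2.29, 3.99 and 1.65 CPM on HF and 20.4, 30.0, 11.9 and 21.1 on HFCF. Labelled-knockout females stood at 4.41, 3.95, 7.79 and 1.34 on HF and 7.50, 19.1, 20 and 21.1 on HFCF. Labelled-knockout males and control females showed no overlap between diets. In the other comparisons the ranges overlapped through 1 low HFCF liver, replicate 1 in each. The log2 fold changes were 1.36 (SE 0.21, adjusted p = 0.00134) in control males, 1.90 (0.24, 2.29e-05) in labelled-knockout males, 2.20 (0.51, 0.0136) in control females and 1.94 (0.45, 0.0206) in labelled-knockout females. The last call was lost without HF replicate 1 or 2 or HFCF replicate 2, 3 or 4 (adjusted p at most 0.0624).

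The inflammatory CC ligands, several of which act through CCR1, differed among themselves. Ccl6, at GRCm38 chr11:83587882-83593087, had means of 12.0 ± 1.95 CPM in control males on HF and 25 ± 6.96 on HFCF (SD, n = 6 each). Its female controls stood at 10.7, 7.37, 11.6 and 7.48 CPM on HF and at 28.2, 34.6, 18.4 and 32.9 on HFCF, with no overlap. Its log2 fold changes were 1.10, 0.95, 1.63 and 1.41 in control males, labelled-knockout males, control females and labelled-knockout females (adjusted p = 0.00199, 2.5e-05, 0.00524 and 0.0046). Its paralog Ccl9, at chr11:83572919-83578636, was called on HFCF in males: 33.5 ± 4.37 CPM on HF and 43.3 ± 4.08 on HFCF in controls (log2 0.40, SE 0.09, adjusted p = 0.00508), and log2 0.73 (SE 0.10, adjusted p = 6.25e-05) in labelled-knockout males. Control females held 55.2 ± 6.09 CPM of Ccl9 on HF and 62.7 ± 4.21 on HFCF (SD, n = 4 each), which did not pass the test. The difference of the Ccl9 diet effect between sexes was tested among controls and was not called. Ccl3, a ligand of CCR1 from activated macrophages, was higher in labelled-knockout males (log2 1.76, SE 0.32, adjusted p = 0.000474) and control females (2.05, SE 0.53, adjusted p = 0.0196), the latter not without HF replicate 4 or HFCF replicate 1 or 2. In labelled-knockout females on HF, Ccl3 stood at 0.484, 0.527, 2.45 and 0.141 CPM, the 2.45 being replicate 3 with the high neutrophil markers. Without that liver Ccl3, Ccl4, Ccl5 and Cxcr4 were also called in this comparison, and Cxcl13 was not.

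Ccr1, a receptor of Ccl3, Ccl5, Ccl6 and Ccl9, had group means of 0.29 to 2.11 CPM. It was higher on HFCF in labelled-knockout males (log2 1.36, SE 0.48, adjusted p = 0.0319), control females (1.96, SE 0.54, adjusted p = 0.0243) and labelled-knockout females (1.75, SE 0.47, adjusted p = 0.0344). These calls were lost in 6 of 12 fits in labelled-knockout males (without HF replicate 1, 2, 5 or 6 or HFCF replicate 3 or 4) and in 6 of 8 in control females (all but those without HF replicate 1 or HFCF replicate 3). In labelled-knockout females they were lost without HF replicate 1, 2 or 4 or HFCF replicate 2, 3 or 4. In control males Ccr1 was called only without HFCF replicate 1, which stood at 0.367 CPM where the group's median was 2.32. Ccr7, which guides dendritic cells to lymph nodes, lies at GRCm38 chr11:99144196-99155077. In males its lowest, median and highest CPM were 0.576, 0.864 and 1.26 in HF controls, 0.551, 2.01 and 2.57 in HFCF controls, 0.325, 0.69 and 0.861 in labelled-knockout HF and 0.182, 1.72 and 1.88 in labelled-knockout HFCF livers. In each label 1 low HFCF liver, control replicate 1 or labelled-knockout replicate 6, made the ranges overlap. The labelled-knockout females stood at 1.24, 0.461, 1.08 and 0.352 CPM on HF and 1.77, 1.84, 3.32 and 1.96 on HFCF, and control females at 1.33, 1.24, 0.561 and 0.245 on HF and 1.93, 1.72, 1.39 and 1.65 on HFCF, neither of which overlap. Ccr7 was called in control males (log2 1.11, SE 0.32, adjusted p = 0.0209), labelled-knockout males (1.19, SE 0.40, adjusted p = 0.0248) and labelled-knockout females (1.47, SE 0.42, adjusted p = 0.0434), and not in control females (0.99, SE 0.43, adjusted p = 0.106), where it was called without HF replicate 1 (1.30). These calls were lost without any 1 of several livers. In control males they were HF replicate 2 and HFCF replicates 3 and 5, in labelled-knockout males HF replicate 2 and HFCF replicates 2 and 5, with adjusted p of at most 0.0529 in these 6 fits. In labelled-knockout females they were HF replicates 1, 2 and 4 and HFCF replicates 2, 3 and 4, with adjusted p of at most 0.131.

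The CX3C pair rose together. Cx3cl1, fractalkine, which is made as a membrane-bound ligand and can be shed, lies at GRCm38 chr8:94772009-94782427. Its lowest, median and highest CPM in males were 1.87, 3.11 and 4.70 in HF controls, 3.31, 10.7 and 11.9 in HFCF controls, 1.68, 2.35 and 2.94 in labelled-knockout HF and 4.12, 6.63 and 10.4 in labelled-knockout HFCF livers. Control females stood at 3.98, 1.49, 0.810 and 0.797 CPM on HF and 10.5, 10.8, 7.01 and 11.8 on HFCF. Labelled-knockout females stood at 2.10, 1.78, 1.86 and 1.2 on HF and 3.09, 9.70, 7.87 and 7.84 on HFCF. There was no overlap between diets except in control males, where HFCF replicate 1 at 3.31 CPM lay inside the HF range. The log2 fold changes were 1.61 (SE 0.28, adjusted p = 0.00203) in control males, 1.58 (0.21, 4.33e-05) in labelled-knockout males, 2.49 (0.46, 0.00703) in control females and 2.04 (0.34, 0.00594) in labelled-knockout females.

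Cx3cr1, its receptor on monocytes and macrophages, spans GRCm38 chr9:119901616-120069879 in the annotation used and overlaps 7 other genes, so its value is less certain than that of Cx3cl1. Control females stood at 11.4, 1.12, 2.12 and 0.552 CPM on HF and 20.4, 43.4, 11.1 and 24.3 on HFCF, and the ranges overlapped because HF replicate 1 was above the lowest HFCF liver. Labelled-knockout females stood at 1.99, 3.75, 7.65 and 0.703 on HF and 8.61, 20, 22.7 and 29.7 on HFCF. In males the HF controls ran from 5.58 to 12.2 CPM (median 7.54) and the HFCF controls from 7.47 to 34.5 (median 26.4), while labelled-knockout livers ran from 1.75 to 8.65 (median 5.31) on HF and from 12.8 to 27.7 (median 16.8) on HFCF. Both labelled-knockout comparisons showed no overlap. The log2 fold changes were 1.60, 1.87, 2.69 and 2.5 in the order used above (SE 0.29, 0.28, 0.77 and 0.57, adjusted p = 0.00248, 8.93e-05, 0.0274 and 0.0188). The call in control females was lost in 6 of 8 fits, without HF replicate 2, 3 or 4 or HFCF replicate 1, 2 or 5 (adjusted p at most 0.0794). In labelled-knockout females it was lost without HF replicate 1 or HFCF replicate 3 or 4 (at most 0.0593).

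**Figure D3:**
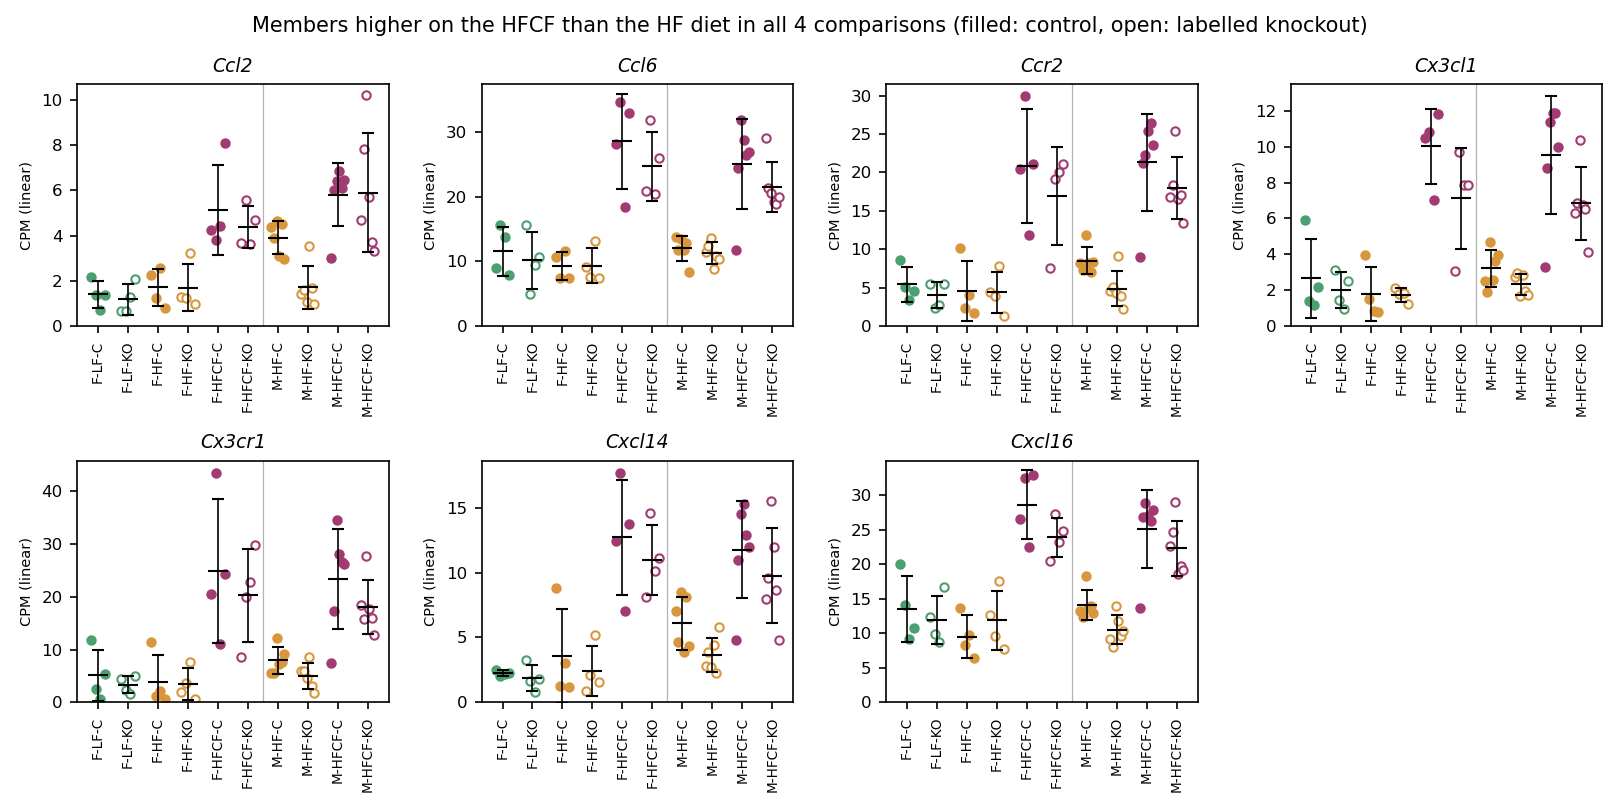
CPM per liver (linear axis) in the 10 groups for the 7 members higher on HFCF than HF in all 4 comparisons, filled points control and open points labelled knockout, green LF, orange HF, purple HFCF, with the mean and SD in black (bars are clipped at 0). The low purple point among the control males is replicate 1, at 9.0 CPM of Ccr2, and the high orange point among the control females is replicate 1, at 11.4 CPM of Cx3cr1.

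CXCL16 and CXCR6 form another pair. Cxcl16, a scavenger receptor and membrane-bound ligand, lies at GRCm38 chr11:70453983-70459984 and overlaps Zmynd15. It was 14.1 ± 2.17 CPM in control males on HF and 25.1 ± 5.68 on HFCF, and 10.5 ± 2.12 and 22.3 ± 4.04 in labelled-knockout males. Female controls stood at 13.7, 8.24, 9.72 and 6.37 CPM on HF and 26.6, 32.4, 22.5 and 32.9 on HFCF, with no overlap. Its log2 fold changes were 0.87, 1.10, 1.59 and 1.0 (adjusted p = 0.00234, 2.52e-05, 0.00544 and 0.0188), the last of them lost without HF replicate 2 or HFCF replicate 2 or 4. Zmynd15 differed in the same direction in the first 3 of these (log2 0.44, 0.78 and 1.04, adjusted p = 0.0178, 0.00138 and 0.00803), and how far the shared stretch sets either value was not tested. Cxcr6, the receptor, was low, with group means of 0.654 to 1.91 CPM. It was higher in labelled-knockout males (log2 0.85, SE 0.30, adjusted p = 0.0329) and control females (1.17, SE 0.31, adjusted p = 0.0211). The first of these was lost in 9 of 12 fits (all but those without HF replicate 2 or 4 or HFCF replicate 6) and the second without HF replicate 4 or HFCF replicate 1, 2 or 5. Fyco1, which overlaps Cxcr6, was at log2 0.08 (adjusted p = 0.556) and -0.23 (adjusted p = 0.0479) in the same comparisons.

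Cxcl14, a constitutive chemokine of epithelia and stroma at GRCm38 chr13:56288643-56296551, was also higher in all 4 comparisons. In males its lowest, median and highest CPM were 3.85, 5.86 and 8.52 in HF controls, 4.84, 12.4 and 15.3 in HFCF controls, 2.24, 3.35 and 5.78 in labelled-knockout HF and 4.79, 9.14 and 15.5 in labelled-knockout HFCF livers. Control females on HF stood at 8.83, 1.24, 3.05 and 1.16 CPM, with replicate 1 again highest, and on HFCF at 12.4, 17.7, 7.01 and 13.7. Labelled-knockout females stood at 0.861, 2.11, 5.20 and 1.55 on HF and at 8.09, 14.6, 10.1 and 11.1 on HFCF, which did not overlap. The log2 fold changes were 0.98, 1.45, 1.82 and 2.16 (SE 0.26, 0.27, 0.58 and 0.45, adjusted p = 0.0143, 0.000536, 0.0404 and 0.0133). The call in control females was lost in 6 of 8 fits, without HF replicate 2, 3 or 4 or HFCF replicate 1, 2 or 5 (adjusted p at most 0.102).

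Cxcl12 was lower on HFCF in 3 comparisons, and its receptor Cxcr4 was higher in 3. Cxcl12, Ccl27a and Cxcl13 are described here because of their values, outside the rule that chose the other named members. Cxcl12 lies at GRCm38 chr6:117168535-117181367. Female controls stood at 506, 541, 604 and 584 CPM on HF and 420, 433, 463 and 326 on HFCF, with no overlap. Labelled-knockout females stood at 678, 585, 555 and 595 on HF and 408, 379, 479 and 371 on HFCF, again without overlap. In labelled-knockout males the lowest, median and highest were 428, 489 and 539 CPM on HF and 315, 392 and 418 on HFCF. In control males they were 326, 353 and 405 on HF and 290, 335 and 359 on HFCF, which overlapped. On the log2 scale Cxcl12 fell by 0.43 in control females (SE 0.12, adjusted p = 0.0232), by 0.55 in labelled-knockout females (SE 0.12, adjusted p = 0.0175) and by 0.32 in labelled-knockout males (SE 0.08, adjusted p = 0.00393). The call was lost without HF replicate 3 or 4 or HFCF replicate 1 in control females, and without HF replicate 1 or HFCF replicate 2 or 4 in labelled-knockout females (adjusted p at most 0.066). The change in control males was -0.10 (SE 0.08, adjusted p = 0.37) and was not called. Cxcr4 was 1.82 ± 0.273 CPM in control males on HF and 4.70 ± 1.72 on HFCF, and rose by log2 1.41, 1.48 and 2.21 in control males, labelled-knockout males and control females (adjusted p = 0.00248, 0.000348 and 0.0114). In labelled-knockout females on HF it stood at 0.646, 0.592, 4.90 and 1.55 CPM, and the diet difference was called only without replicate 3.

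Ccl27a, a skin-type ligand of CCR10 at GRCm38 chr4:41769467-41774247, overlaps Il11ra1. Female controls stood at 9.18, 11.5, 11.7 and 12.0 CPM on HF and 8.74, 6.28, 8.76 and 8.27 on HFCF. It fell by 0.46 on the log2 scale in control females (SE 0.15, adjusted p = 0.04, lost in 6 of 8 fits, all but those without HF replicate 1 or HFCF replicate 3) and by 0.58 in labelled-knockout males (SE 0.12, adjusted p = 0.00102). Il11ra1 was also lower in labelled-knockout males (-0.23, adjusted p = 0.0171) and was at 0.02 (adjusted p = 0.879) in control females. Cxcl13, which attracts B cells, fell by 3.79 on the log2 scale in labelled-knockout females (SE 1.13, adjusted p = 0.0489). Its HF livers stood at 2.58, 0.790, 26.5 and 0.915 CPM and its HFCF livers at 0.589, 0.945, 0.396 and 0.309, so the size of the fold rests on replicate 3. It was not called without that liver, nor without HF replicate 1 or any 1 of the HFCF livers. The homeostatic thymic and gut ligand Ccl25 fell by 0.41 on the log2 scale in labelled-knockout males (SE 0.11, adjusted p = 0.00943).

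The ELR chemokines, which act on neutrophils through CXCR2, did not move as 1 group. Cxcl1 stayed within group means of 5.67 to 11.1 CPM and was called nowhere. Cxcl5 was at 0.483 ± 0.220 CPM in control males on HF and 1.14 ± 0.226 on HFCF (log2 1.24, SE 0.29, adjusted p = 0.00861), and every HFCF male (0.685 to 1.76 CPM over both labels) was above every labelled-knockout HF male (0.00 to 0.319 CPM). The change was 2.59 (SE 0.41, adjusted p = 0.000153) in labelled-knockout males and 1.94 (SE 0.63, adjusted p = 0.043) in control females, where the call was lost in 7 of 8 fits, all but that without HF replicate 1. Cxcl2 was called in labelled-knockout males (0.86, SE 0.33, adjusted p = 0.0456), at group means of 0.598 and 1.08 CPM, and not in 6 of 12 fits (without HF replicate 1, 3 or 6 or HFCF replicate 2, 3 or 6). In control females it was called without HF replicate 1. Cxcr2 was close to the read minimum and was tested in 2 of the 13 comparisons, with no call. Summed neutrophil markers had medians of 8.94 CPM in control males on HF and 14.2 on HFCF, and 1 of the 3 tested neutrophil markers was higher in that comparison. In labelled-knockout males the medians were 7.63 and 13.4 CPM and 3 of 3 were higher, and in control females 8.4 and 16.5 with 1 of 3 higher. Their part in these members' differences was not tested.

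Among the CXCR3 ligands, which attract effector T cells, Cxcl9 was higher on HFCF in females of both labels. Controls stood at 18.7, 12.1, 14.5 and 9.07 CPM on HF and 33.8, 20.3, 16.2 and 38.9 on HFCF, which overlap (log2 1.01, SE 0.30, adjusted p = 0.0327). Labelled-knockout females stood at 16.5, 12.2, 25.1 and 12.7 on HF and 28.1, 32.8, 26.2 and 28.2 on HFCF, which do not (0.79, SE 0.22, adjusted p = 0.0366). The call was lost in 5 of 8 fits in controls (without HF replicate 2, 3 or 4 or HFCF replicate 1 or 5) and in 6 of 8 in labelled-knockout females (without HF replicate 1, 2 or 4 or HFCF replicate 2, 3 or 4). The male groups had means of 20.1 to 25.8 CPM with SDs of 6.95 to 9.94, and were not called. Cxcl10, induced by interferons and NF-kappaB, had group means of 4.19 to 9.95 CPM and was called in none of the 13 comparisons. Its log2 fold changes of HFCF over HF ran from -0.24 to 0.41. Without replicate 4 of the labelled-knockout males on HF it was called in that label (0.68, adjusted p = 0.0136). The receptor Cxcr3 was not called either, except in control females without HF replicate 3.

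Ccl22, a ligand of CCR4 made by dendritic cells and macrophages, was higher in labelled-knockout males (1.83, SE 0.33, adjusted p = 0.000414) and labelled-knockout females (2.78, SE 0.69, adjusted p = 0.0256). The females stood at 0.0538, 0.329, 0.686 and 0.00 CPM on HF and 1.03, 2.59, 2.28 and 1.96 on HFCF. These are few reads and the fold depends on how low counts are handled, but the groups do not overlap. The female call was lost without HF replicate 1 or 2 or HFCF replicate 2, 3 or 4, and in control females Ccl22 was called without HF replicate 1. Xcr1, the receptor of cross-presenting dendritic cells, was higher in control males (1.24, SE 0.29, adjusted p = 0.00783). Of the 4 atypical receptors, Ackr2, which clears CC chemokines, was higher in control females (1.04, SE 0.30, adjusted p = 0.0278), at 2.48, 1.18, 2.24 and 1.10 CPM on HF and 4.35, 2.99, 3.61 and 3.41 on HFCF. The call was lost without HF replicate 2 or 4 or HFCF replicate 1 or 5. Ackr1, Ackr3 and Ackr4 were not called in these comparisons over all livers. Ackr3 was higher in control females without HF replicate 1 (1.12, adjusted p = 0.00826), and Ackr4 lower in control males without HFCF replicate 1 (-0.62, adjusted p = 0.0314). Acad11, which overlaps Ackr4, was lower in control males over all livers (-0.38, adjusted p = 0.0192). How far the shared stretch sets the value of Ackr4 was not tested.

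In females the HFCF diet was also compared with LF. These comparisons use the same HFCF livers as those above and are not independent of them. In controls 13 of 33 members were higher and 2 lower, where 35.2% of all genes were called (18.4% higher, 16.8% lower), and in labelled-knockout females 13 were higher and 1 lower of 32, where 12.0% were (8.26% higher, 3.74% lower). The 7 members higher in all 4 comparisons with HF were called in both, though Cx3cr1 was not in controls without LF or HFCF replicate 2, nor Cx3cl1 in labelled-knockout livers without HFCF replicate 2. Ccr2 stood at 8.61, 5.10, 3.42 and 4.55 CPM in the LF controls (log2 1.93, SE 0.32, adjusted p = 0.00187) and at 5.46, 2.34, 2.75 and 5.42 in the labelled-knockout LF livers (2.13, SE 0.36, adjusted p = 0.00488), all below the HFCF livers of the same label. Cxcl14 in LF controls was tightly placed at 2.53, 2.03, 2.22 and 2.25 CPM (2.48, SE 0.26, adjusted p = 0.000374). Cxcl5 and Cxcl2 were higher than on LF in controls (3.54 and 2.05, adjusted p = 0.00121 and 0.0114), from LF levels of at most 0.120 and 0.439 CPM. Cxcl12 stood at 579, 538, 627 and 575 CPM in the LF controls and fell by 0.51 on the log2 scale to HFCF (SE 0.12, adjusted p = 0.0103).

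The HF and LF diets were compared in females. No member was called by edgeR, in controls (0 of 27, where 0.696% of all genes were called) or in labelled-knockout livers (0 of 27, where 0.155% were). DESeq2's Wald test also gave 0 and 0, where it called 4.07 and 3.05% of all genes. At an unadjusted p under 0.05 there were 4 of 27 members in controls and 0 of 27 in labelled-knockout livers. Both shares lie below the 16.3 and 13.4% of all genes that passed. The 4 were Ccl5, Cxcr3, Cxcr6 and Xcr1, all lower on HF, with log2 values of -0.68, -1.43, -1.46 and -1.31. Xcr1 stood at 2.36, 2.23, 0.899 and 1.48 CPM in LF controls and 0.231, 0.805, 0.872 and 0.858 in HF controls, without overlap. Cxcr6 was at 3.12, 1.90, 1.92 and 0.713 CPM on LF and 0.866, 0.372, 0.872 and 0.613 on HF, which overlap. The 4 were singled out after their values were seen, and nothing about the members as a set is drawn from them.

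Labelled-knockout and control livers were compared within each sex and diet. In males on HF, 2 members were higher (Cxcl12 and Ccl27a) and 6 lower (Ccl2, Ccl3, Ccl22, Cxcl14, Cxcl16 and Ccr2) of 32 tested in the labelled-knockout livers. These 8 of 32 make a share near the 18.5% of all genes called in this comparison. Over all genes, 8.57% were called higher and 9.88% lower. The calls of 4 of the 6 lower members were lost when single livers were left out. No direction of the members as a set is drawn from these 8. The median log2 fold change of the members was -0.27, beside 0.000204 over all genes. These comparisons share their HF livers with the diet comparisons above.

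Cxcl12 was higher in labelled-knockout males on HF, with every labelled-knockout liver (428 to 539 CPM) above every control (326 to 405), by log2 0.43 (SE 0.07, adjusted p = 0.000755). Ccl27a had lowest, median and highest values of 6.88, 7.69 and 10.6 CPM in controls and 9.61, 11.7 and 13.1 in labelled-knockout livers, which overlap (0.51, SE 0.12, adjusted p = 0.00752). Il11ra1, which overlaps it, was higher too (0.35, SE 0.06, adjusted p = 0.000614). Ccl22 had 0.911, 1.49 and 2.31 CPM in controls and 0.325, 0.463 and 0.83 in labelled-knockout livers, without overlap. It fell by 1.53 on the log2 scale (SE 0.31, adjusted p = 0.00283). Ccl2 fell by 1.2 (SE 0.27, adjusted p = 0.00498). Replicate 4 of the labelled-knockout males, at 3.54 CPM of Ccl2, lay inside the control range of 2.94 to 4.64, and the other 5 at or under 1.66 did not. Ccl3 fell by 1.12 (SE 0.35, adjusted p = 0.0336), Ccr2 by 0.81 (SE 0.24, adjusted p = 0.0254), Cxcl14 by 0.75 (SE 0.25, adjusted p = 0.0484) and Cxcl16 by 0.42 (SE 0.13, adjusted p = 0.032).

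The calls of Ccl3, Ccr2, Cxcl14 and Cxcl16 depended on single livers. Without replicate 3 of the controls or replicate 1 of the labelled-knockout males all 4 were lost and the count was 4, where 14.3 and 15.4% of all genes were called. All 4 were also lost without labelled-knockout replicate 5, where Xcr1 was added and the count was 5 (14.4% of all genes). It was 5 as well without control replicate 5 or labelled-knockout replicate 2 or 3. Without labelled-knockout replicate 4 the count was 12 (19.6% of all genes), with Ccr1, Cx3cr1 and Cxcl10 lower and Cxcl13 higher. Ccl3 had enough reads in 6 of the 12 such fits only. In the same comparison 4 of 7 tested monocyte and recruited macrophage markers were lower, led by Gpnmb (log2 -1.76, adjusted p = 0.000417) and Trem2 (-1.09, adjusted p = 0.0119), and the summed level ran from 134 to 254 CPM in controls and 65.6 to 152 in labelled-knockout livers. Of 4 hepatocyte markers 3 were higher. Of 5 stellate and fibroblast markers 3 were lower, and 2 of 3 blood markers were higher. Summed blood markers were 664, 485 and 651 CPM in labelled-knockout replicates 3, 4 and 5. They were 90.1, 86.2 and 88.7 CPM in replicates 1, 2 and 6, and 88.8 to 173 in controls. The part of these in the members' differences was not tested, and in bulk RNA fewer cells of a type and less RNA per cell cannot be told apart.

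**Figure D4:**
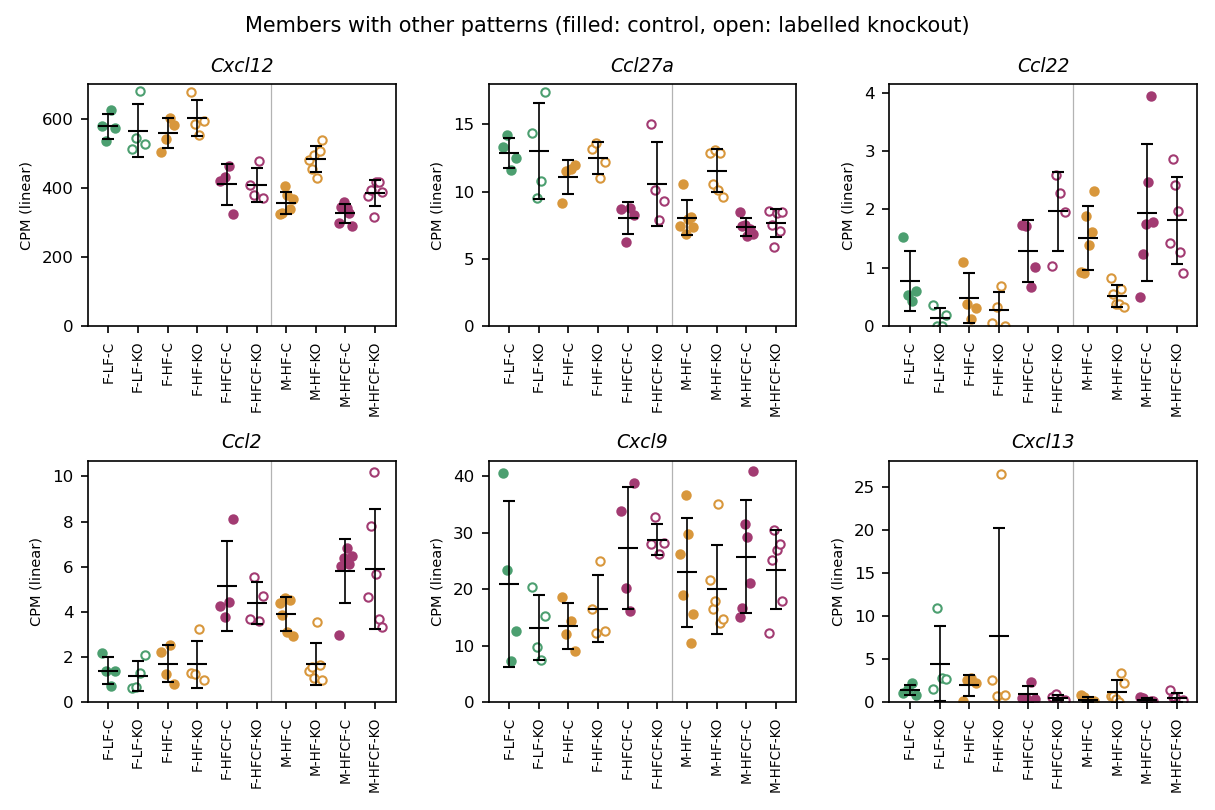
CPM per liver (linear axis) in the 10 groups for 6 members, filled points control and open points labelled knockout, green LF, orange HF, purple HFCF, with the mean and SD in black (bars are clipped at 0). Among HF males the open Cxcl12 points, 428 to 539 CPM, lie above the filled ones, 326 to 405, and 1 open Cxcl13 point among HF females stands at 26.5 CPM.

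In the other 4 comparisons of labelled-knockout with control livers, edgeR called no member: 0 of 33 in males on HFCF (2.21% of all genes called), 0 of 28 in females on LF (0.0%), 0 of 26 in females on HF (0.0%) and 0 of 35 in females on HFCF (0.0534%). DESeq2's Wald test called 0 in each as well, where it called 4.24, 0.0494, 0.469 and 0.454% of all genes in the same order. At an unadjusted p under 0.05 there were 2 members in males on HFCF (Cxcl12 and Ccl24, where 14.2% of all genes passed), 1 in females on LF (Cxcl13, 2.49%), 1 in females on HF (Ccl9, 8.03%) and 1 in females on HFCF (Ccl4, 8.95%). In males on HFCF, 2 members (Ccl6 and Cx3cl1, both lower) were called without control replicate 1, where 7.09% of all genes were. Cxcl12 in males on HFCF ran from 290 to 359 CPM in controls and from 315 to 418 in labelled-knockout livers. In females its values were 506 to 604 CPM in HF controls and 555 to 678 in labelled-knockout HF livers.

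Whether the effect of the label differed between diets or sexes was tested as an interaction. No member was called in any of the 5 interaction tests by edgeR, and none by DESeq2. DESeq2's Wald test called 3.97 and 0.0% of all genes for the label by diet in males and females. For the label by sex it called 0.378% on HF and 0.338% on HFCF, and for the HFCF diet by sex in controls 0.831%. With edgeR, 0 of 36 were called for the label by diet in males (1.56% of all genes), with 8 at an unadjusted p under 0.05 (17.1% of all genes). Ccl2 had the interaction log2 1.22 (SE 0.40, adjusted p = 0.103) and Ccl27a -0.48 (SE 0.16, adjusted p = 0.11). Ccl2 was called without labelled-knockout HF replicate 4, and Ccl27a without HF control replicate 2. For the label by diet in females the count was 0 of 36, for the label by sex on HF 0 of 36 and on HFCF 0 of 38, each with 0.0% of all genes called. Unadjusted p-values under 0.05 were found for 0, 5 and 0 of these members, and for 4.32, 10.6 and 9.67% of all genes. For the HFCF diet by sex in controls it was 0 of 38 (0.00646% of all genes), with 6 members and 16.5% of all genes at an unadjusted p under 0.05. Without replicate 1 of the control females on HF, 8 members were called there, with 10.8% of all genes: Ackr2, Ackr3, Ccr2, Cx3cl1, Cx3cr1, Cxcl2, Cxcl14 and Cxcl16. The difference in Cxcl12 between males on HF and females on HF for the label was 0.33 (SE 0.12, adjusted p = 0.387).

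Genes of chemokine receptor signalling and its neighbours were read from a list of 40. Besides ligands (Pf4, Ppbp and Rarres2) and receptors (Cmklr1 and Ccrl2), the list held genes that act downstream of receptors. Among these were G protein subunits, PI3K subunits, Rac regulators, Src-family kinases and NF-kappaB subunits. The counts are over the whole list. Of those tested, 24 of 38 were higher and 0 lower on HFCF than HF in control males, 29 of 39 higher and 3 lower in labelled-knockout males, 26 of 38 higher and 0 lower in control females, and 4 of 38 higher and 0 lower in labelled-knockout females. These are 63.2, 82.1, 68.4 and 10.5% of the listed genes tested, where 22.3, 41.7, 30.8 and 14.5% of all genes were called. In labelled-knockout males Dock2 (log2 1.40, adjusted p = 3.21e-06) and Vav1 (1.21, adjusted p = 5.11e-06), activators of Rac in leukocytes, and Elmo1 (1.69, adjusted p = 4.1e-06), the partner of Dock2, had the smallest p-values. In control females these were Cmklr1 (1.89, adjusted p = 0.00446), a chemoattractant receptor, and the kinases Prkcd (1.17, adjusted p = 0.00446) and Pik3cd (1.43, adjusted p = 0.00447). Among 9 inducers of chemokine transcription and their receptors, Ifngr1 was higher in control males, labelled-knockout males and control females (log2 0.51, 0.55 and 0.68), and Tnf in labelled-knockout males and control females (1.71 and 1.23, adjusted p = 0.000285 and 0.0109). In labelled-knockout males on HF, 1 of 39 listed genes was higher and 5 were lower, which is 15.4%, below the 18.5% of all genes, with Elmo1 lowest in p (-0.94, adjusted p = 0.000918).

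Markers of liver cell types were counted in the 4 comparisons of HFCF with HF. The shares of all genes called there were 22.3, 41.7, 30.8 and 14.5%. The order is control males, labelled-knockout males, control females and labelled-knockout females. Of 8 monocyte and recruited macrophage markers, 6 of 8 tested were higher on HFCF than HF in control males, 6 of 7 in labelled-knockout males, 7 of 8 in control females and 4 of 8 in labelled-knockout females. Their summed level had medians of 188 and 664 CPM in control males, 107 and 460 in labelled-knockout males, 74.4 and 616 in control females and 90.4 and 608 in labelled-knockout females. In control males Gpnmb and Trem2 rose by log2 2.69 and 1.89 (adjusted p = 0.000292 and 0.000832). All 4 biliary markers were higher in each of the 4 comparisons. Of 6 resident Kupffer cell markers, 2, 3, 2 and 0 were higher, and 2 were lower in labelled-knockout males. Of the 4 hepatocyte markers 2, 4, 4 and 0 were lower. Of 6 T cell markers 0, 1, 0 and 0 were higher. B and plasma cell markers gave 0, 1, 0 and 0 higher of 4, and no tested NK cell marker was called. Of 5 stellate and fibroblast markers 3, 4, 1 and 4 were higher, of 5 endothelial markers 0, 1, 4 and 1, of 3 tested neutrophil markers 1, 3, 1 and 0, and of 4 dendritic cell markers 1, 2, 1 and 1. All 3 blood markers were lower in labelled-knockout males and none was called in the other comparisons. In these males HF replicates 3, 4 and 5 held 664, 485 and 651 CPM of summed blood markers. The HFCF livers held 104 to 165 and HF replicates 1, 2 and 6 held 90.1, 86.2 and 88.7. The part of these shifts in the members' differences was not tested.

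**Figure D5:**
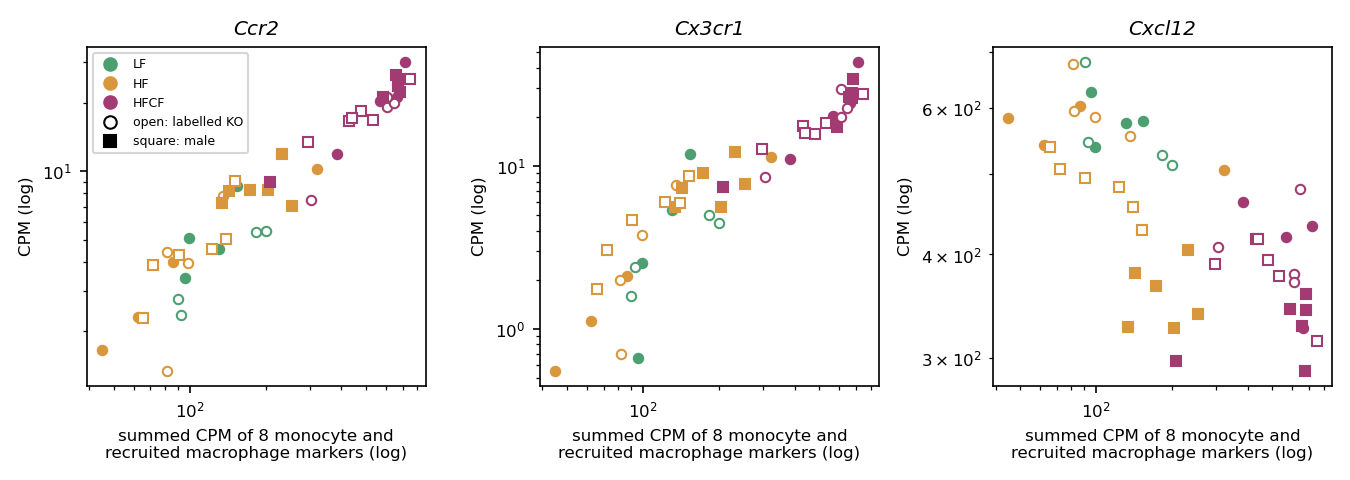
CPM of Ccr2, Cx3cr1 and Cxcl12 in each of the 48 livers against the summed CPM of 8 monocyte and recruited macrophage markers (both axes log), coloured by diet, open points labelled knockout, squares male. Control HFCF male replicate 1 lies at 208 CPM of markers and 9.0 CPM of Ccr2, and control HF female replicate 1 at 321 and 10.2.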

How the data were processed

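The samples were 48 whole-liver RNA libraries in 10 groups named from the sample titles. The deposited counts are whole, unnormalized reads per gene, per the file headers. STAR 2.6.1, HTSeq 0.6.1, DESeq2 and GRCm38 are named in the submitters' processing notes, without their roles. The libraries were not strand specific, per the labels. The authors' FPKM values are scaled by gene length and library size and were used to rank members. The normalised signal deposited beside each count is the count divided by 1 factor per library and was not used for tests. The log2 changes deposited by the authors served only as directions beside the p-values deposited by the authors, to count members they call.

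The 11 tables were joined by gene, 0 of 1341082 repeated counts differed, and a gene missing from a table was set to 0. Each per-sample column was matched to a sample by its label, also for replicate 2 of the labelled-knockout females on LF, whose animal number reads differently in the series text. CPM used TMM factors over 48 libraries (edgeR 4.0.16, R 4.3.3). Each comparison was fitted on its own groups with filterByExpr and edgeR's quasi-likelihood test. The interaction tests used 4 groups. The fit was tested on simulated data, with the same spread for all genes and changes only in well-read genes. It therefore says nothing about members with few reads. Depth limits low members: most with under 1 CPM rest on few reads. p-values measure the spread between mice as labelled. Alternatives were DESeq2 1.42.0 size factors and Wald test, no filter, a replicate block, and leaving out each library. Values per liver follow a rule: up to 3 members per role, called in at least 1 comparison, with a mean of at least 0.5 CPM over 48 libraries, ranked by the number of calls and then by p. Ccl4, Ccl25, Xcr1, Cxcl1 and Cxcl10 were given outside it after their values were seen. Of the 55 genes that match the symbol rule, 1 is not reported here, and counts of members are over the other 54. The members and lists were chosen with earlier results of these data known.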

Additional observations from a re-analysis of the deposited data

Results flagged for a closer look

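Of 190 sets of 1 member in 1 group of 4 or 6 livers, 22 held a liver separated from the rest by more than Dixon's 95% critical value. Chance gives about 1 in 20, or 9.5. Replicate 1 of the control males on HFCF was below the rest in 5 members: Ccr2 9.0 CPM (others 21.2 to 26.4), Cxcl16 13.7 (26.3 to 28.9), Cx3cl1 3.31 (8.82 to 11.9), Ccl6 11.8 (24.5 to 31.9) and Ccl2 3.0 (6.02 to 6.84). Replicate 4 of the labelled-knockout males on HF was above the rest in 3: Ccr1 1.90 CPM (0.13 to 0.748), Cxcl9 35.2 (14.1 to 21.7) and Ccl2 3.54 (0.974 to 1.66).

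Replicate 1 of the labelled-knockout females on HFCF was below the rest in Ccr2 at 7.50 CPM (19.1 to 21.1). Replicate 3 of the labelled-knockout females on HF was above the rest in Ccl3 at 2.45 CPM (0.141 to 0.527) and Ccl2 at 3.24 (0.985 to 1.29). In the control males on HF, replicate 3 was high in Ccr2 at 11.9 CPM (7.07 to 8.31) and Cxcl16 at 18.3 (12.3 to 14.0), and replicate 1 low in Ackr2 at 1.92 (2.7 to 2.89). Control HF female replicate 1 was high in Cx3cr1 at 11.4 CPM (0.552 to 2.12).

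The others were scattered values. On HFCF, labelled-knockout male replicate 6 was low in Cxcr6 at 0.848 CPM (1.17 to 1.29) and in Ccr7 at 0.182 (1.32 to 1.88), labelled-knockout female replicate 3 high in Ccr7 at 3.32 (1.77 to 1.96), labelled-knockout male replicate 1 high in Ccl6 at 29.0 (18.8 to 21.3), and control female replicate 5 high in Ccl2 at 8.11 (3.80 to 4.43). Labelled-knockout HF female replicate 4 had 0.00 CPM of Ccl7 (0.377 to 0.395), and control LF female replicate 1 had 1.53 CPM of Ccl22 (0.42 to 0.603).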

How the results depend on the processing

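Of 85 calls of named members, each kept its direction in every alternative run that tested it, and 84 were kept with DESeq2 size factors, 84 with DESeq2's Wald test and 81 with no filter on low counts. Leaving out 1 library kept 650 of 806. The replicate block kept 58 of 85. In none of the 13 comparisons did every same-numbered pair correlate above 0.1. In females 2 of 4 pairs did so between labels on LF, between labels on HF and between HF and LF controls. The highest correlations there were 0.249, 0.32 and 0.34. With 3 to 6 pairs in each comparison, this check cannot exclude a pairing by replicate number. With the replicate block, members called on HFCF against HF were 0 in control females and 7 in labelled-knockout females. The fit without it gave 17 and 13. The share of all genes called was 0.0 and 8.05% with the block and 30.8 and 14.5% without it. That the design then has fewer residual degrees of freedom follows from the block itself.

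Leaving out 1 library gave 4 to 12 members called in labelled-knockout against control males on HF and 0 to 2 on HFCF. The share of all genes called was then 14.3 to 19.6% and 1.25 to 7.09%. On HFCF against HF such fits gave 10 to 18 members in control and 16 to 23 in labelled-knockout males. In females they gave 6 to 21 in control and 3 to 16 in labelled-knockout livers. In this order, 15.2 to 37.0, 35.5 to 41.7, 16.5 to 43.6 and 5.82 to 29.1% of all genes were called. On HFCF against LF such fits gave 13 to 19 members in control and 10 to 16 in labelled-knockout females. There 23.2 to 37.9% and 4.61 to 23.8% of all genes were called. Interactions gave 0 to 1 for the label by diet in males and 0 to 8 for the HFCF diet by sex in controls, and 0 to 0 in the other 3. The cause of these ranges was not tested. In the authors' deposited table the members with an adjusted p under 0.05 numbered 8 in labelled-knockout males on HF and 13, 22, 18 and 12 on HFCF against HF in control males, labelled-knockout males, control females and labelled-knockout females. The share of all genes that pass in the authors' table is not given here, so nothing about the members as a set is drawn from these counts.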
